A study of Mus musculus with 15 samples.

Results

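The Toll-like receptors described here are 10 genes (Tlr1 to Tlr9 and Tlr13), found on the arrays as every non-control probe that carries 1 of these gene names. There were 21 such probes among 56605, and 17 of them, covering all 10 genes, gave signal well above background on at least 7 of the 15 arrays and were tested. The arrays held RNA of mammary tumours taken at 20 weeks of age from mice in which the mouse mammary tumour virus promoter drives the polyoma middle T oncogene in mammary epithelium (MMTV-PyMT), so all tumours share that transgene. In 7 tumours the mice were of the Wsh background, which carries an inversion next to Kit on chromosome 5 and is known for its lack of mast cells, and in 8 tumours they were of the B6 (C57BL/6) background. The labels do not say whether each tumour came from its own mouse. The p-values therefore set differences against the spread between these tumours, which may not be the spread between mice.

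Toll-like receptors are membrane proteins that recognise conserved microbial molecules and pass the signal through adaptors such as Myd88 and Ticam1 to the kinases that release NF-kB and interferon regulatory factors. At the cell surface Tlr2 pairs with Tlr1 to bind triacylated lipopeptides or with Tlr6 to bind diacylated ones, while Tlr4 senses lipopolysaccharide and Tlr5 flagellin. In endosomes Tlr3, Tlr7, Tlr8, Tlr9 and Tlr13 sense nucleic acids. In tumours these genes are known from macrophages, dendritic cells and lymphocytes, and some also from epithelium.

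The probes for Tlr6 and Tlr1 are shown because the results turn on these neighbouring genes and because a shared stretch could let 1 probe report the other gene. Each is 60 bases long and lies on the minus strand of chromosome 5 in build mm9, the Tlr6 probe at chr5:65344365-65344424 and the Tlr1 probes at chr5:65316115-65316174 and chr5:65315994-65316053. Per the files they match the transcripts from bases 2509, 2465 and 2886. No exon annotation of mm9 was used. Capitals mark the longest runs that the Tlr6 probe shares with each Tlr1 probe, and of A_66_P137861 the first 30 bases are shown.
Tlr6 A_52_P117393: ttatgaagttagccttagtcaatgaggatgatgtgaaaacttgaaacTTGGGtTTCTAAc
Tlr1 A_51_P495581: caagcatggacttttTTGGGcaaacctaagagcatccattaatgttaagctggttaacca
Tlr1 A_66_P137861: ggggagTTCTAAtaatagtaccattcatat
The shared runs were 5 and 6 bases long. In the best ungapped overlap, 22 of 57 bases of the Tlr6 probe matched A_51_P495581 and 21 of 58 matched A_66_P137861. No other probe on the array shared a run of 16 bases with any of the 3 probes. Probes were compared with probes only. Whether a probe matches the transcript of the other gene elsewhere was not tested, so these counts do not settle that question.

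The starts of the Tlr1 and Tlr6 genes are shown from RefSeq (GRCm38.p6, minus strand), each as 150 bases from 120 before to 30 after an annotated start, chosen to hold a match to the PU.1 and Ets core AGGAAGT, which is in capitals and stands in the Tlr6 stretch as its reverse complement ACTTCCT.
Tlr1 chr5:64933529-64933678: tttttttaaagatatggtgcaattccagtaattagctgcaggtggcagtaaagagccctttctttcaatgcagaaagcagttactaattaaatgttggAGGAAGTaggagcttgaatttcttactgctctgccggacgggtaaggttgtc
Tlr6 chr5:64959137-64959286: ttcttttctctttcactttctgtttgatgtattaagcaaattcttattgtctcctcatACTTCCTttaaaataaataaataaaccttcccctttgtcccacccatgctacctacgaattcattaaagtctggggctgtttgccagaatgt
The RefSeq table held 10 windows of 300 bases for 8 of the 10 genes, without Tlr4 and Tlr7. On either strand, AGGAAGT occurred in 4 of these windows, against 9.35% of all 32851 windows. They were 1 of 2 windows of Tlr1, 2 of 2 of Tlr6 and 1 of 1 of Tlr9, so 3 genes held them. Of 3 other motifs searched, the AP-1 motif TGACTCA occurred in 1 window (Tlr9) and in 5.20% of all windows. The interferon response element, a pair of GAAA blocks 2 bases apart, occurred in 1 (Tlr6) and in 3.44% of all, and the NF-kB site of the immunoglobulin kappa enhancer in 0 and in 0.155% of all. These letters describe the windows and were not tested against the array values.

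All array values are log2 of the processed signal minus the 75th percentile of that array, so levels of different probes are not comparable, and differences are Wsh minus B6. The 75th percentile of the processed signal lay between 3550 and 4582 in Wsh and between 3328 and 6406 in B6, and 58.8% to 70.8% of the spots in Wsh and 55.7% to 73.4% in B6 were well above background. The number of arrays limits the precision. Kit, next to the Wsh inversion, had a lowest, median and highest value of -0.18, 0.65 and 1.40 in Wsh, against 2.03, 3.30 and 3.84 in B6, and its difference of -2.65 had an adjusted p of 0.000208 in limma. Of 9 listed mast cell markers 4 were measured, and they averaged between -6.30 and -5.40 in Wsh and between -3.85 and 0.84 in B6. Cma1, Mcpt4 and Cpa3 among them were well above background on at most 1 Wsh array and passed the filter through B6. Their Wsh values lie near background, and this contrast is no independent check of the groups. All 7 epithelial markers were measured, with means between 3.21 and 3.79 in Wsh and between 3.47 and 4.05 in B6, so the markers of the labelled tissue were present. Skeletal muscle markers differed between tumours of both groups, and their mean was above the mean of all arrays in 4 Wsh tumours and 1 B6 tumour.

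Of the 10 receptors, Tlr6 was higher and Tlr1 was lower in Wsh tumours, and the other 8 did not pass the test. With limma over 22342 genes and an adjusted p threshold of 0.05, 0.336% of all genes were called (0.107% higher, 0.228% lower), against 2 of the 10 receptors. The receptors and lists were chosen with earlier results of these data known, so this share is a description. The median difference of the other 8 receptors was 0.21, with 6 above 0 and 2 below, against a median of -0.01 over all genes.

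**Figure D1:**
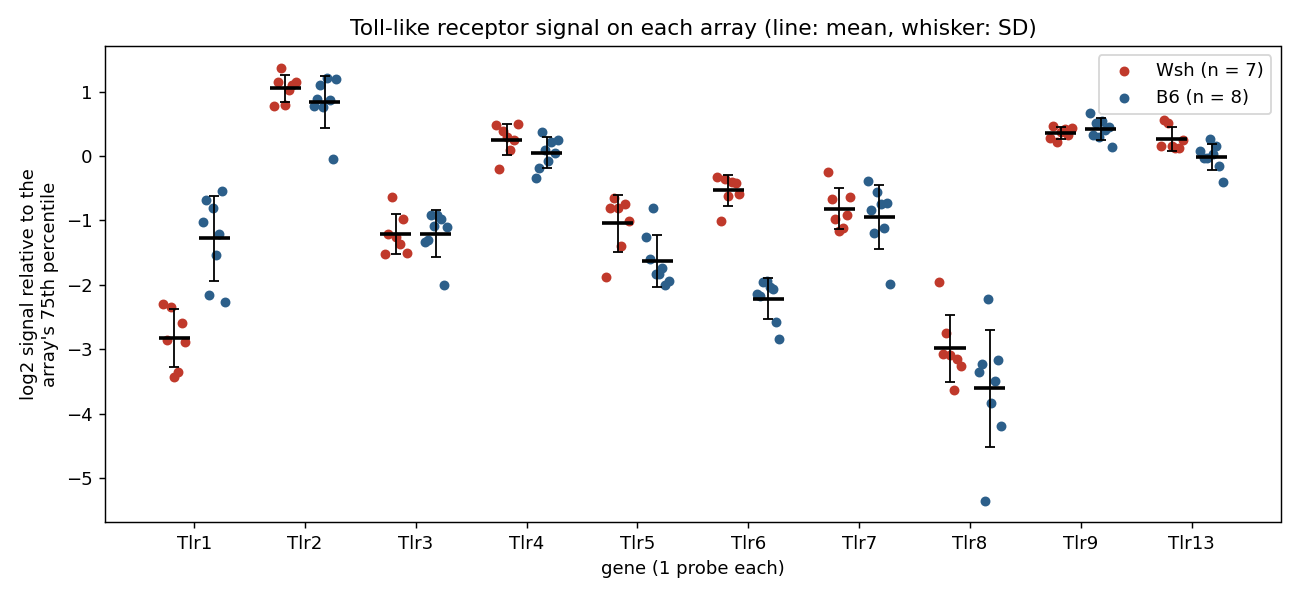
Signal of the representing probe of each receptor on each array (log2 relative to the 75th percentile of the array), Wsh on the left and B6 on the right of each gene, with the mean as a line and the SD as a whisker. Tlr6 and Tlr1 are separated between the groups, Tlr6 with all 7 Wsh arrays above all 8 B6 arrays and Tlr1 with all 7 below, while the points of the other 8 receptors overlap.

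Tlr6, the partner of Tlr2 for diacylated lipopeptides, gave in Wsh replicates 1 to 7 the values -0.32, -1.02, -0.36, -0.61, -0.40, -0.41 and -0.60. In B6 replicates 1 to 8 it gave -2.14, -2.17, -1.95, -1.94, -2.04, -2.06, -2.58 and -2.84. The lowest Wsh value lay above the highest B6 value, and the 0.358% of all genes whose groups do not overlap included Tlr6 and Tlr1. Tlr6 averaged -0.53 ± 0.24 in Wsh (SD, n = 7) and -2.22 ± 0.32 in B6 (SD, n = 8), a difference of 1.68 (SE 0.15, 95% interval 1.371 to 1.997) or 3.21-fold, with an adjusted p of 3.81e-05 in limma. Tlr6 was measured by 1 probe. Within slide 1 its difference was 1.47 (4 Wsh and 4 B6 arrays) and within slide 2 it was 1.91 (3 Wsh and 4 B6 arrays), and the groups did not overlap on either slide. Fitted alone, the slides gave adjusted p of 0.111 and 0.167 in limma.

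Tlr1, the partner of Tlr2 for triacylated lipopeptides, gave in Wsh replicates 1 to 7 the values -2.29, -2.86, -2.35, -3.42, -3.36, -2.59 and -2.89. In B6 replicates 1 to 8 it gave -1.02, -0.68, -2.16, -0.81, -1.54, -1.21, -0.54 and -2.27. The groups did not overlap, but B6 replicates 3 and 8 lay close to the highest Wsh arrays. Tlr1 averaged -2.82 ± 0.45 in Wsh (SD, n = 7) and -1.28 ± 0.66 in B6 (SD, n = 8), a difference of -1.54 (SE 0.28, 95% interval -2.13 to -0.95), or 2.92-fold lower in Wsh, with an adjusted p of 0.0325 in limma. The second Tlr1 probe, A_51_P495581, averaged -3.98 ± 0.54 in Wsh and -2.40 ± 0.76 in B6, a difference of -1.58 (SE 0.32) whose groups overlapped. Over every probe, where 0.332% were called, its adjusted p was 0.0524 and that of the first probe 0.0277 in limma. The Tlr1 difference was -1.56 within each slide, with adjusted p of 0.462 and 0.480 in limma when each slide was fitted alone. The call was kept without 6 of the 15 arrays taken 1 at a time and lost without each of Wsh replicates 2, 4, 5 and 7 and B6 replicates 1, 2, 4, 5 and 6, where the difference stayed between -1.69 and -1.44 over all 15 fits and the adjusted p reached 0.0764. Without the 5 arrays whose muscle markers were above the mean, a setting added after the data were seen, Tlr1 differed by -1.43 with an adjusted p of 0.261 in limma, and Tlr6 by 1.58 with an adjusted p of 0.0332.

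Within each array, Tlr6 minus Tlr1 lay between 1.85 and 2.96 in Wsh (mean 2.29 ± 0.43, SD, n = 7) and between -2.04 and 0.21 in B6 (mean -0.94 ± 0.68, SD, n = 8). This difference of 2 probes does not compare the levels of the genes, but it is free of the scaling of the array. Its lowest Wsh value was 1.64 above its highest B6 value, that of B6 replicate 3. Each gene was already separated between the groups, in opposite directions, so this gap follows from them and is a description. With the second Tlr1 probe, the same measure ran from 2.39 to 4.35 in Wsh and from -0.67 to 1.69 in B6. The lack of overlap there also follows from the separation of Tlr6, which was wider than the overlap of that Tlr1 probe.

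**Figure D2:**
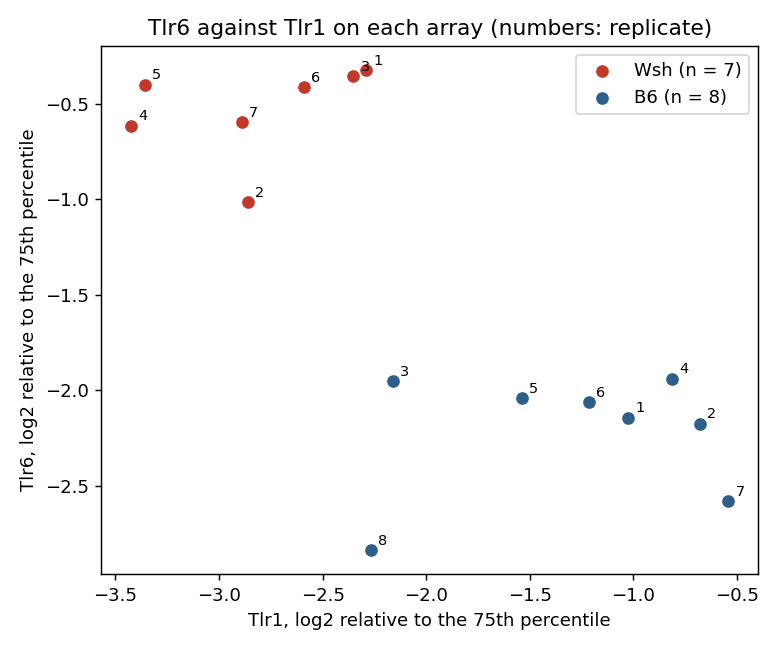
Tlr6 (vertical axis) against Tlr1 (horizontal axis) on each array, both as log2 relative to the 75th percentile of the array, with replicate numbers beside the points. Wsh tumours lie at the upper left and B6 tumours at the lower right, and B6 replicates 3 and 8 are the B6 tumours nearest to the Wsh tumours along the Tlr1 axis.

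Tlr2, the shared partner of both, had a lowest, median and highest value of 0.78, 1.10 and 1.37 in Wsh, against -0.05, 0.88 and 1.21 in B6. The groups overlapped, with 5 of 7 Wsh tumours above the B6 median, and the difference of 0.21 (SE 0.17, 95% interval -0.14 to 0.56) had an adjusted p of 0.727 in limma. Without B6 replicate 7, the lowest array, it was 0.081. Tlr4 had values of -0.20, 0.30 and 0.49 in Wsh and of -0.34, 0.07 and 0.37 in B6, with 6 of 7 Wsh tumours above the B6 median. Its difference was 0.21 (SE 0.13, adjusted p 0.626), that of a second probe 0.16, and that of A_55_P2603039, well above background on only 4 Wsh and 3 B6 arrays, 0.85.

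Tlr5, the flagellin receptor, had a lowest, median and highest value of -1.87, -0.81 and -0.65 in Wsh and of -1.996, -1.79 and -0.81 in B6. It was above the B6 median in 6 of 7 Wsh tumours, and the groups overlapped. The difference of 0.59 (SE 0.21, 95% interval 0.14 to 1.03) had an unadjusted p of 0.013 and an adjusted p of 0.321 in limma, beside 10.4% of all genes at an unadjusted p under 0.05. The second Tlr5 probe did not share it, with a difference of 0.06 (SE 0.15).

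Among the endosomal receptors, Tlr8, which senses RNA in humans and whose ligands in mouse are less settled, varied most between tumours. It had values of -3.63, -3.09 and -1.96 in Wsh and of -5.35, -3.42 and -2.21 in B6 (lowest, median and highest), and its probe was well above background on 7 Wsh and 7 B6 arrays. Its difference of 0.62 (SE 0.37, adjusted p 0.609) spanned 0 in its 95% interval from -0.16 to 1.39. Without B6 replicate 3, where the probe was not well above background, the difference was 0.37. The other 3 Tlr8 probes were well above background on at most 1 array of a group and were not tested. Tlr7, a receptor for single-stranded RNA, had values of -1.16, -0.92 and -0.25 in Wsh and of -1.98, -0.79 and -0.39 in B6. Its difference was 0.13 (SE 0.21, adjusted p 0.898), that of its second tested probe was 0.62 (SE 0.36), and 1 more probe was not tested.

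Tlr3, the receptor for viral RNA duplexes, had values of -1.52, -1.26 and -0.64 in Wsh and of -2.01, -1.09 and -0.91 in B6, and a difference of -0.01 (SE 0.17, 95% interval -0.37 to 0.36). Its second probe differed by 0.11 (SE 0.18). Tlr9, the CpG DNA receptor, was measured by 1 probe, and its values varied least. They were 0.22, 0.38 and 0.47 in Wsh against 0.14, 0.42 and 0.68 in B6, with a difference of -0.06 (SE 0.08, 95% interval -0.24 to 0.12). The adjusted p in limma was 0.995 for Tlr3 and 0.871 for Tlr9. Tlr13, a mouse receptor for bacterial ribosomal RNA, had 0.12, 0.16 and 0.56 in Wsh and -0.41, 0.01 and 0.26 in B6, and all 7 Wsh tumours lay above the B6 median. Its difference of 0.28 (SE 0.11, 95% interval 0.05 to 0.51) had an unadjusted p of 0.0192 and an adjusted p of 0.368 in limma, beside 10.4% of all genes at an unadjusted p under 0.05. The second Tlr13 probe, well above background on 5 Wsh and 5 B6 arrays, differed by 0.21 (SE 0.21, 95% interval -0.23 to 0.64). Tlr11 and Tlr12, outside the 10 receptors, differed by 0.18 (adjusted p 0.936) and 0.34 (adjusted p 0.458).

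**Figure D3:**
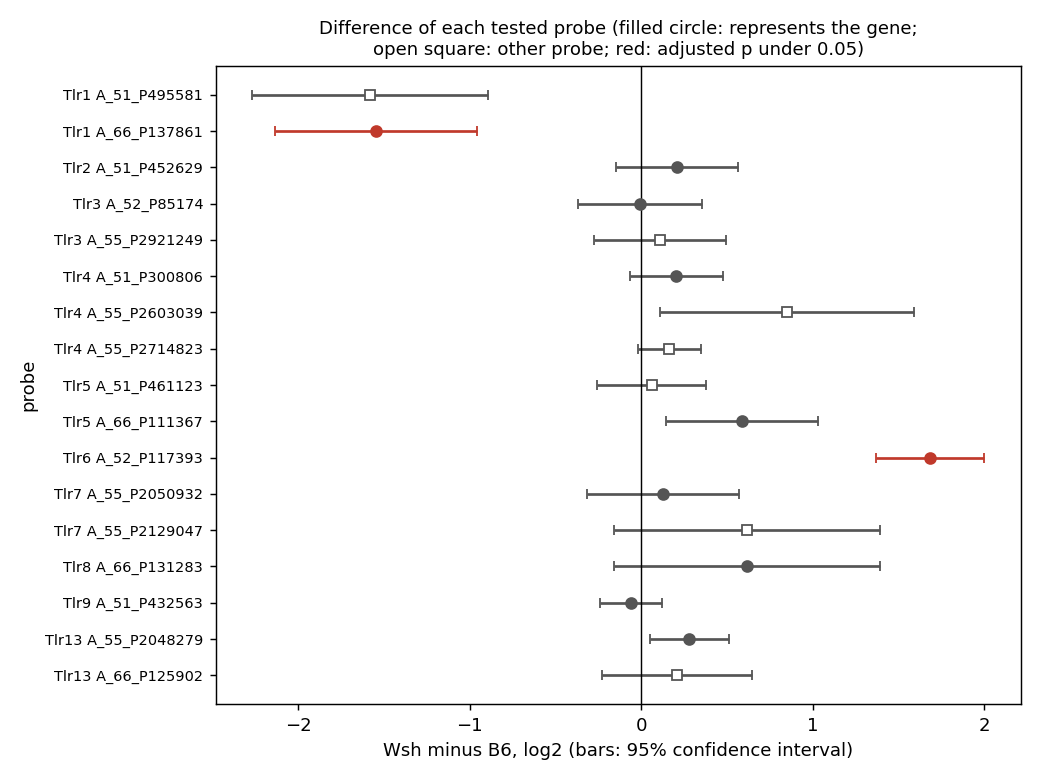
Difference between Wsh and B6 (log2) of each of the 17 tested probes, with 95% confidence intervals; filled circles represent the gene, open squares are its other probes, and red marks an adjusted p under 0.05 over all probes. Only the Tlr6 probe and 1 Tlr1 probe are red, and the other Tlr1 probe lies beside it.

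On chromosome 5 the probes of Tlr1 and Tlr6 lie 28.4 kb apart, between Klf3, a zinc finger transcription factor, and Fam114a1. Within 1 Mb of the Tlr1 probe 26 genes were tested and 3 were called, Tlr1, Tlr6 and Fam114a1, beside 0.336% of all genes. The window was centred on Tlr1, so Tlr1 and Tlr6 are in it by construction, and 1 of the 24 others was called. Fam114a1, 116 kb from the Tlr1 probe, averaged -0.40 ± 0.24 in Wsh and 0.20 ± 0.17 in B6, a difference of -0.60 (SE 0.11) with an adjusted p of 0.0358 in limma. Its second probe differed by 0.48 the other way, so the gene has no single direction here, and the mean of its probes gave -0.058. Klf3 differed by 0.50 (SE 0.12, adjusted p 0.108), and its 3 probes were all higher in Wsh, by 0.13 to 0.50. Of the 21 measured genes in a list of 23 chromosome 5 neighbours, none was called higher and 2 were called lower, Fam114a1 and Uchl1, a ubiquitin hydrolase that differed by -2.33 (SE 0.15, adjusted p 1.29e-06). Over all genes, 0.107% were called higher and 0.228% lower. That list also held Pgm1, which the files place on another chromosome and whose difference was 0.04. N4bp2 differed by 0.47 (adjusted p 0.217). Of the others, Ugdh, Chrna9, Wdr19, Pds5a, Rhoh, Klb, Rpl9, Apbb2, Tbc1d1 and Limch1 lay between 0.03 and 0.76, and Smim14, Lias, Klhl5, Rbm47, Ube2k and Rfc1 between -0.32 and -0.08, with none past the test. In all, the 24 genes of the 1 Mb window other than Tlr1 and Tlr6 lay between -0.60 and 0.87.

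**Figure D4:**
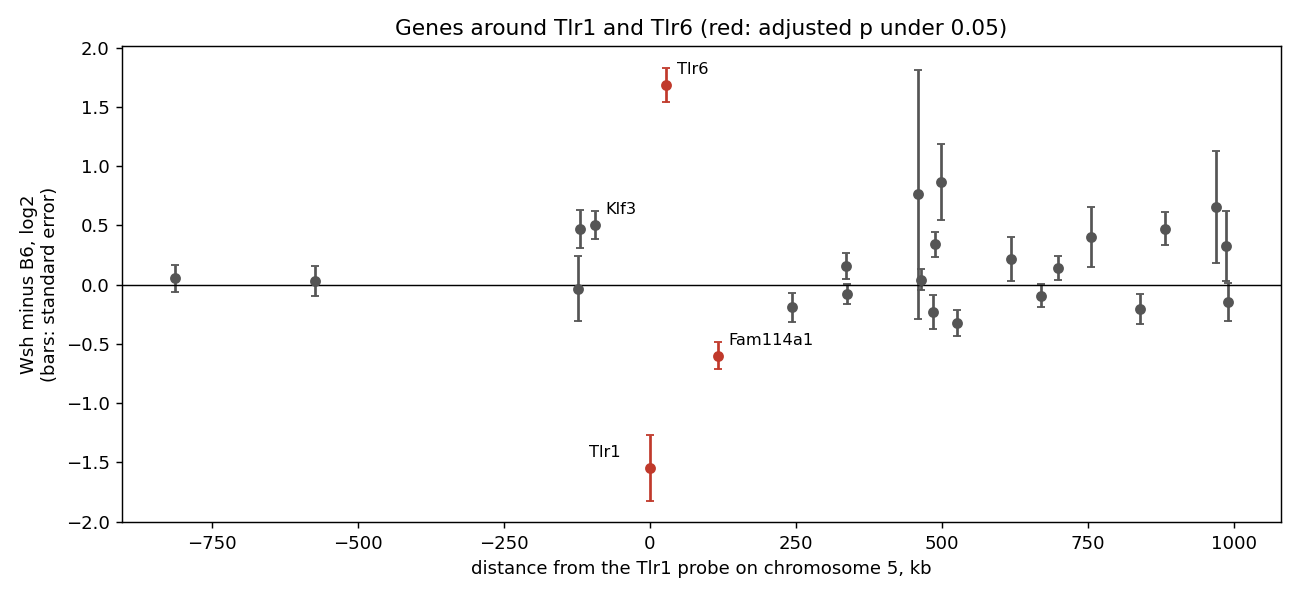
Difference between Wsh and B6 (log2, bars are standard errors) of the 26 genes tested within 1 Mb of the Tlr1 probe, by distance in kb; red marks an adjusted p under 0.05. Tlr1 at -1.54 and Tlr6 at 1.68 lie on opposite sides of 0 and 28.4 kb apart, and the other 24 genes lie between -0.60 and 0.87.

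The rest of the pathway gave no call at an adjusted p of 0.05 in limma, in either direction. Among the adaptors and proximal kinases, 20 of 21 were measured, 7 were above 0 and 13 below, with a median of -0.05; those of largest moderated t were Ikbkg (-0.30, adjusted p 0.185), Irak1 (-0.23) and Irak3 (-0.26). The 11 transcription factors had 10 above 0 and a median of 0.12, with Jun at 0.34, Fos at 0.69 and Irf5 at 0.50. The 13 coreceptors and chaperones had 11 above 0 and a median of 0.23, led by Cd14, the lipopolysaccharide coreceptor, at 0.53 (SE 0.14, adjusted p 0.164), with Cnpy4 at 0.22 and Cd180 at 0.82. The 12 negative regulators had 8 above 0 and a median of 0.03, with Tnip3 at 0.77, Sigirr at -0.19 and Tollip at -0.18.

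Genes that Toll-like receptor signalling is known to induce were measured for 19 of 26, and all 19 lay above 0, with a median of 0.54 against -0.01 over all genes. None passed the test. Ccl7, a monocyte chemokine, averaged 0.07 ± 0.84 in Wsh and -1.23 ± 0.84 in B6, a difference of 1.30 (SE 0.40, adjusted p 0.241). Ccl3 differed by 0.82 (adjusted p 0.251), and the inflammatory cytokine Il1b by 1.28 (adjusted p 0.274). Beside these, 10 of 12 macrophage markers lay above 0 with a median of 0.20, their mean running from 1.06 to 2.07 in Wsh and from 0.31 to 2.02 in B6, and 6 of 7 dendritic cell markers lay above 0 with a median of 0.54. Several other marker lists also lay mostly above 0: 6 of 7 T cell markers (median 0.73), 8 of 8 B cell markers (0.31), 4 of 5 neutrophil markers (0.42), 5 of 6 plasmacytoid dendritic cell markers (0.36), 5 of 6 adipocyte markers (0.85) and 6 of 6 skeletal muscle markers (3.27), with none called. The remaining lists did not share this: 0 of 5 fibroblast markers (median -0.12), 2 of 7 epithelial markers (-0.11) and 0 of 4 mast cell markers (-5.03) lay above 0. Of the endothelial markers 3 of 5 did (0.06). The part of these cells in the induced genes was not tested, and in bulk tissue fewer cells of a type and less RNA per cell cannot be told apart.

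Relations with cell type markers were computed over 15 arrays for 120 pairs of a receptor and the mean of a marker list. For r, the mean of each group was subtracted first. For rho, the values were ranked within each group and the ranks were centred. Permutation p-values within groups were adjusted over the 120 pairs. Both r and rho passed 0.05 in 17 pairs. Tlr8 followed the macrophage markers most closely (r = 0.96, rho = 0.89, adjusted permutation p 0.0012 and 0.012), with r of 0.94 within Wsh, 0.97 within B6 and 0.91 without the 2 arrays farthest from the median. It also passed with adipocyte markers (r = 0.90), dendritic cell markers (r = 0.85), fibroblast (0.81), endothelial (0.79) and plasmacytoid dendritic cell markers (0.72) and neutrophil markers (0.53, and 0.36 without the 2 farthest arrays). Several lists passed with the same receptor, and relations between the lists themselves were not removed.

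Tlr1 followed the dendritic cell markers (r = 0.88, rho = 0.80, adjusted permutation p 0.0016 and 0.0209), with r of 0.71 within Wsh, 0.98 within B6 and 0.89 without the 2 farthest arrays. B6 replicates 3 and 8, the lowest B6 arrays for Tlr1, were also the lowest B6 arrays for dendritic cell markers, at -3.12 and -2.91. The same arrays were lowest in B6 for macrophage, neutrophil, plasmacytoid dendritic cell, B cell, T cell, mast cell, endothelial and adipocyte markers. Their low signal was therefore not particular to dendritic cells. For fibroblast, epithelial and skeletal muscle markers they were not both the lowest. The mean of the dendritic cell list overlapped between the groups, from -2.72 to -0.49 in Wsh and from -3.12 to -1.27 in B6, with 6 of 7 members above 0 and none called. With its mean as a covariate, a setting added after the data were seen, Tlr1 differed by -1.85. Tlr1 also passed with endothelial (r = 0.82), adipocyte (0.79), T cell (0.77) and B cell markers (0.72). With the mast cell markers r was 0.73 but rho 0.29 (adjusted permutation p 0.539), and r was -0.58 within Wsh, where 3 of the 4 markers were well above background on at most 1 array, and 0.93 within B6.

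Tlr7 passed with T cell markers (r = 0.76, rho = 0.76, adjusted permutation p 0.00888 and 0.0263) and B cell markers (r = 0.75). Tlr5 passed with the epithelial markers (r = 0.79, rho = 0.71, adjusted permutation p 0.0177 and 0.0386), but r was 0.53 without the 2 farthest arrays. Tlr2 ran against the endothelial (r = -0.68) and fibroblast markers (r = -0.69). Without the 2 farthest arrays r was -0.55 and -0.74, within Wsh -0.49 and -0.48, and within B6 -0.80 and -0.77. B6 replicate 7, the lowest array for Tlr2, had the highest endothelial mean in B6 (-0.31). Tlr6 passed with no list, with r between -0.21 and 0.37, and nor did Tlr3, Tlr4, Tlr9 or Tlr13. Among the 45 pairs of receptors, Tlr1 and Tlr8 passed in both measures (r = 0.80, rho = 0.83, adjusted permutation p 0.0099 and 0.0351, r = 0.82 without the 2 farthest arrays). Tlr2 and Tlr3 had r = 0.83, but rho was 0.60 with an adjusted permutation p of 0.345.

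**Figure D5:**
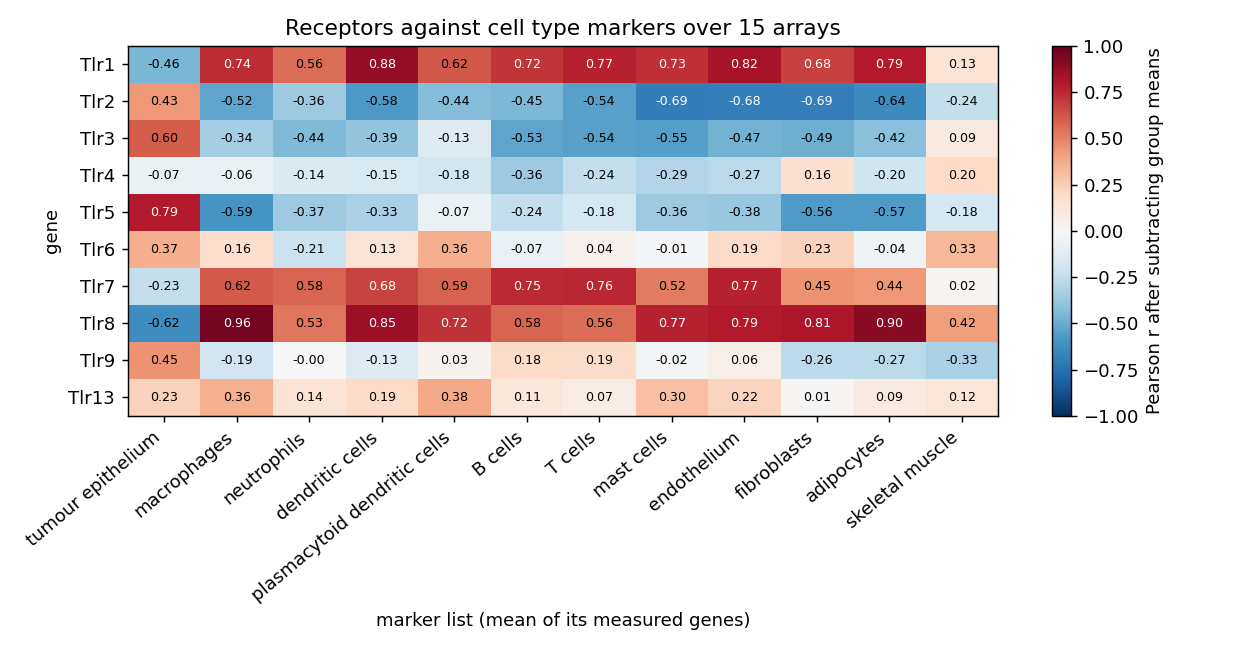
Pearson r over 15 arrays between each receptor (rows) and the mean of each marker list (columns), after subtracting the mean of each group; red is positive and blue negative. The row of Tlr8 reaches 0.96 with macrophages and that of Tlr1 0.88 with dendritic cells, while the row of Tlr6 stays between -0.21 and 0.37.

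The genes whose pattern was most like each receptor were taken as the 3 of highest r over the 15 arrays among all genes tested, with r given as a description because it is the highest of many. Here rho is the Spearman correlation of the values, or of the values after subtraction of the group means, and not of ranks within groups. For Tlr8 they were the C-type lectins Clec4a3 (r = 0.98, rho = 0.98), Clec12a (0.97, 0.92) and Clec4a1 (0.97, 0.97), and the same 3 came first after the group means were subtracted. For Tlr3 they were Erbb3 (0.91, 0.92), Epcam (0.88, 0.81) and Spata13 (0.87, 0.71), again the same after subtraction. Tlr7 was most like Tnfsf12 (0.93, 0.94), Cd101 and Cdiptos, Tlr2 most like Tgif1 (0.92, 0.77), Adnp2 and Rnf145, and Tlr4 most like Stag2 (0.84, 0.67), Shld1 and Zfp869. Tlr5 was most like Tacc2 (0.91, 0.90), Iqgap1 and N4bp1, and Tlr13 most like Lgmn (0.90, 0.89), Havcr2 and Edn2. For Tlr9 the first was 1700034K08Rik (0.97, 0.91), followed by probes without a gene name.

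For the separated genes Tlr6 and Tlr1 no r over both groups is given. By the same rule Tlr6 came with Lrmda (difference 2.63), Pianp (4.07) and Dtd2 (0.78), and Tlr1 with the mast cell proteases Cma1 (well above background on 1 Wsh and 7 B6 arrays), Mcpt4 (not well above background on any Wsh array) and Cpa3 (not well above background on any Wsh array). After subtraction of the group means these genes no longer came first. Tlr1 was then most like Cd83 (r = 0.93, rho = 0.93), a marker of mature dendritic cells, Mir142hg (0.92, 0.91) and Ces2g (0.92, 0.91), and Tlr6 most like Baiap2 (0.88, 0.89), Inpp1 (0.85, 0.74) and an unnamed transcript.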

How the data were processed

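RNA of each tumour was hybridised to a 1-colour Agilent array. The deposited intensity is the processed signal of Agilent Feature Extraction 10.7.3.1, per the file headers background-subtracted and detrended, with no normalization between arrays. The deposited log2 table of the same samples, of unknown normalization, served as an alternative. Coordinates are mm9 per the file headers, and probe names were updated through RefSeq. Spots of a probe were averaged, and log2 processed signal minus the 75th percentile of each array was compared with limma 3.58.1 in R 4.3.3 (two-sided, Benjamini-Hochberg). The filter needed signal well above background on 7 or more arrays (34346 probes kept), and the kept probe of highest mean represented a gene. The fit was tested on simulated data. Correlations used 100000 permutations within groups. Receptors, gene lists and tests were chosen with earlier results of these data known. Genes named are the 10 receptors, per pathway list those past the threshold and up to 3 of largest moderated t, chromosome 5 neighbours, and the 3 most like each receptor. Alternatives were background correction, scaling, filters, probe choice, slide, replicate block, array weights, trend and robust eBayes, cell marker covariates, the deposited values and leaving out each array.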

Additional observations from a re-analysis of the deposited data

Results flagged for a closer look

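Of the 34 sets of values tested (17 probes in each group), 6 held an array farther from its neighbour than the 95% critical value of Dixon's ratio for its group size, where chance gives about 1 in 20. Tlr6 in Wsh replicate 2 was -1.02, the lowest of its group, with the next at -0.61, and it lay above every B6 tumour. In B6 replicate 7, Tlr2 was -0.052 with the next at 0.77, and Tlr3 was -2.01 with the next at -1.34. Tlr4 probe A_55_P2603039, which is near background, was -7.78 in B6 replicate 2 with the next at -6.28, and -4.21 in Wsh replicate 7 with the next at -5.03. The second tested Tlr7 probe, A_55_P2129047, was -0.89 in Wsh replicate 1 with the next at -1.87.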

How the results depend on the processing

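Tlr6 kept its direction in all 18 other settings and its call in 16 of them, losing it on slide 1 alone (1.47) and slide 2 alone (1.91), and leaving out 1 array gave 1.60 to 1.76, always called. Tlr1 kept its direction in all 18 and its call in 13. It lost the call with no filter (-1.54), on slide 1 alone (-1.56) and slide 2 alone (-1.56), with the replicate block (-1.69, adjusted p 0.136 in limma) and without the arrays with skeletal muscle (-1.43), and leaving out 1 array gave -1.69 to -1.44. The count of receptors called was 1 with no filter, with the replicate block and without the muscle arrays, 0 on slide 1 alone and 0 on slide 2 alone, and 1 to 2 without 1 array. Over all genes, 75 were called, against 25 with no filter, 4 on slide 1, 1 on slide 2, 15 with the replicate block, 171 with array weights, 24 without the muscle arrays, 46 with the dendritic cell covariate and 25 to 76 without 1 array. Deviations of tumours with the same replicate number correlated between -0.24 and 0.21. Tumours with different numbers were not compared, so whether the numbers pair the tumours was not settled. The causes of these changes were not tested, although some of the settings bring fewer arrays or more genes.

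Small differences changed sign. Tlr3 was 0.050 with the mean of probes, 0.000657 on slide 1, 0.0078 with the replicate block, 0.072 with array weights, 0.036 with the macrophage covariate, 0.025 with the B cell covariate, 0.075 with the dendritic cell covariate and -0.12 to 0.044 without 1 array. Tlr7 was -0.016 on slide 1, -0.021 with the replicate block, -0.000555 with array weights, -0.049 with the dendritic cell covariate and -0.021 to 0.21 without 1 array. Tlr9 was 0.0098 on slide 2. Tlr11 was -0.072 with the replicate block, -0.019 with array weights, -0.24 with the dendritic cell covariate and -0.090 to 0.36 without 1 array. No value could be had for Tlr8 and Tlr11 when signal was required on all 15 arrays. Of the receptors not called, Tlr8 also moved by over 1.5 times, to 0.33 with normexp, 0.33 on slide 2, 0.35 with the deposited values, 0.35 with the macrophage, 0.25 with the adipocyte and muscle and 0.22 with the dendritic cell covariates. Tlr7 was also 0.37 with the mean of probes, 0.25 on slide 2 and 0.26 without the muscle arrays. It was 0.028 with median scaling, 0.030 with the macrophage and 0.070 with the B cell covariate, and 0.076 with the deposited values. Tlr9 was also -0.16 with median scaling, -0.12 on slide 1 and -0.099 with the replicate block. It was -0.013 with the adipocyte and muscle covariates, -0.025 without the muscle arrays and -0.099 to -0.023 without 1 array. Tlr2 was 0.11 with median scaling and 0.33 with the dendritic cell covariate. Tlr4 was 0.11 with median scaling, 0.41 with the mean of probes and 0.13 without the muscle arrays. Tlr5 was 0.32 with the mean of probes and 0.34 on slide 1, and Tlr13 0.18 with median scaling. Fam114a1 was called in 11 of 18 settings and in 4 of 15 fits without 1 array. The Tlr8 probes that were not tested are limited by signal near background.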
